A study of Mus musculus with 14 samples.

Results

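The fibroblast growth factor (FGF) genes described here are 6 ligands (Fgf1, Fgf2, Fgf7, Fgf9, Fgf10 and Fgf18) and 4 receptors (Fgfr1 to Fgfr4), measured in whole mouse lung. They were chosen by name, as the probe sets whose platform annotation holds exactly 1 of these 10 gene symbols, which gave 10 of the 18193 genes measured and 23 of the 45101 probe sets on the array. The 3 groups compared were C57BL/6 mice aged 20 weeks: mice lacking the tetraspanin CD151 (CD151KO, 5 samples), mice lacking the tetraspanin CD9 (CD9KO, 5 samples) and wild type mice (4 samples, numbered 1, 3, 4 and 5). Tetraspanins are small membrane proteins that hold other membrane proteins, integrins among them, in clusters, and the study's title concerns CD151, the lung epithelium and fibrosis. The labels give no mating scheme, and nothing in them says whether each sample is an animal of its own. The p-values therefore measure only how much these samples vary, and that variation may be technical.

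FGF ligands are secreted proteins that bind receptor tyrosine kinases on the cell surface together with heparan sulfate, a sugar chain of cell surfaces and matrix. In the lung, Fgf7 and Fgf10 come from mesenchymal cells and act on epithelium through a splice form of Fgfr2, and Fgf10 drives the branching of the embryonic airways. Fgf9 comes from epithelium and mesothelium of the embryonic lung, Fgf18 from its mesenchyme, and Fgfr3 and Fgfr4 together are needed for the mouse lung to form alveoli after birth.

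Each value is the signal of 1 probe set (a group of short probes for 1 transcript) on 1 array, in linear units. The labels were borne out by Cd151, at 1027 to 1072 on the CD151KO arrays and 4991 to 5832 on the wild type arrays, and by Cd9, at 614 to 749 on the CD9KO arrays and 7998 to 8163 on the wild type arrays. The tissue was borne out too: Sftpc and Scgb1a1, markers of alveolar type 2 and club cells, had signals of at least 28308 and 28414 on every array. Array medians lay between 84.1 and 86.2. The number 1 arrays of CD151KO and wild type stood apart on the first principal component (37.5% of the variance), at -17.2 and -18.5. The other arrays lay between -8.01 and 2.46 in CD151KO, 7.23 and 13.4 in CD9KO, and -4.96 and 1.48 in wild type. Some of the results that lean on these 2 arrays are given with and without them. BioB, a labelled control RNA added at hybridization, gave 363 to 424 in CD151KO and 361 to 444 in CD9KO, against 314 to 354 in wild type. What part it has in the differences from wild type was not tested.

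Of the 10 genes, 8 passed the filter on low signal and were tested: all 4 receptors, and the ligands Fgf1, Fgf7, Fgf9 and Fgf18. Fgf2 and Fgf10, with 1 probe set each, lay below it on average. Each tested gene was represented by its brightest probe set, and 18 of the 23 probe sets passed the filter, which lay at a signal of 53.4. Tests were made with limma over 12985 genes on the log2(signal + 16) scale, so that fold changes of dim genes are understated, and a gene was called at an adjusted p under 0.05.

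The promoters of Fgfr2 and Fgfr3 are shown first, because these 2 receptor genes had the lowest and the highest log2 difference of the 8 tested genes between CD9KO and wild type lungs. They are windows of 300 bases, 250 before and 50 after a transcript start, from the RefSeq table of build GRCm38.p6, in the orientation that table gives. Of the 10 genes, 8 had an entry with a window that could be shown. Capitals mark matches on either strand to 5 motifs: the GC box GGGCGG, the TATA box TATAAA, the ETS core CCGGAA, the E-box CACGTG and the AP-1 site TGACTCA. The first Fgfr3 window lies at chr5:33721474-33721773 on the plus strand, the second, for another start, at chr5:33722056-33722355 on the plus strand, and the Fgfr2 window at chr7:130266759-130267058 on the minus strand.
Fgfr2: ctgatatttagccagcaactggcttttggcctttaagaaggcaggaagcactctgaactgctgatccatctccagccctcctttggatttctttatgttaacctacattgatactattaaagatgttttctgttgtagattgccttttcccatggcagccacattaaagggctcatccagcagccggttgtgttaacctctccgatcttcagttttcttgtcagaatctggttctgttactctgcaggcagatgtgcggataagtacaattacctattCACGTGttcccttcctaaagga
Fgfr3 first start: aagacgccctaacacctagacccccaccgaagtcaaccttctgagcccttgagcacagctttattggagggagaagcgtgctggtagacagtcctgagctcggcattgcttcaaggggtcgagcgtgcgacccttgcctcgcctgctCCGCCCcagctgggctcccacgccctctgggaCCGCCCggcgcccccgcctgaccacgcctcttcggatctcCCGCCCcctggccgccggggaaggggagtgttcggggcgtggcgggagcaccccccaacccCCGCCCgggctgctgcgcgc
Fgfr3 second start: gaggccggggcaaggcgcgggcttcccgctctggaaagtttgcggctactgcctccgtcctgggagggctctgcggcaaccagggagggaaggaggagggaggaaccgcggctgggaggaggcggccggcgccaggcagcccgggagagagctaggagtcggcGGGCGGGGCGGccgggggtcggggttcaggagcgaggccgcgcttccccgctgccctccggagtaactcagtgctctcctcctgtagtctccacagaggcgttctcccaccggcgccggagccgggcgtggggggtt
The 2 Fgfr3 windows were 69.7% and 73.0% G or C and held 4 and 2 GC boxes, the last pair overlapping. The Fgfr2 window was 43.7% G or C, held 0 GC boxes and had 1 E-box, which began 29 bases after the start. Of 32851 promoter windows in the table, 35.7% held a GC box, 13.6% a TATA box, 14.9% an ETS core, 7.15% an E-box and 5.20% an AP-1 site. A match to such short letters is a description of the window and no evidence that a factor binds there.

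In lungs without CD9, Fgfr2 was lower than in wild type and was the 1 of 8 tested genes called, against 5.51% of all genes called in this comparison. At an unadjusted p under 0.05 there were 3 of the 8, beside 25.4% of all genes, and 2 of the 8 (Fgfr1 and Fgfr2) had groups that did not overlap, beside 11.8% of all genes. Fgfr2, the receptor for Fgf7 and Fgf10 on lung epithelium, measured 1624, 1643, 1682, 1572 and 1604 in CD9KO, against 2493, 2138, 1927 and 1933 in wild type (probe set 1433489_s_at). Every CD9KO array lay below every wild type array, and the CD9KO arrays were close together while wild type number 1 lay well above its group. The log2 difference was -0.37 (SE 0.07, 95% interval -0.52 to -0.23, limma adjusted p = 0.012), a fall of 1.30-fold. Without the number 1 arrays of CD151KO and wild type, an alternative fit, the log2 difference was -0.29 (adjusted p = 0.0077). Fgfr2 was called in each of the 29 alternative fits, at limma adjusted p from 4.7e-05 to 0.042. These include a fit with the replicate number as a block, although the numbers were not taken as pairs. They also include a fit with the first component of the residuals, added after seeing the data. That fit takes up residual spread by design, so nothing is concluded from its p.

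**Figure D1:**
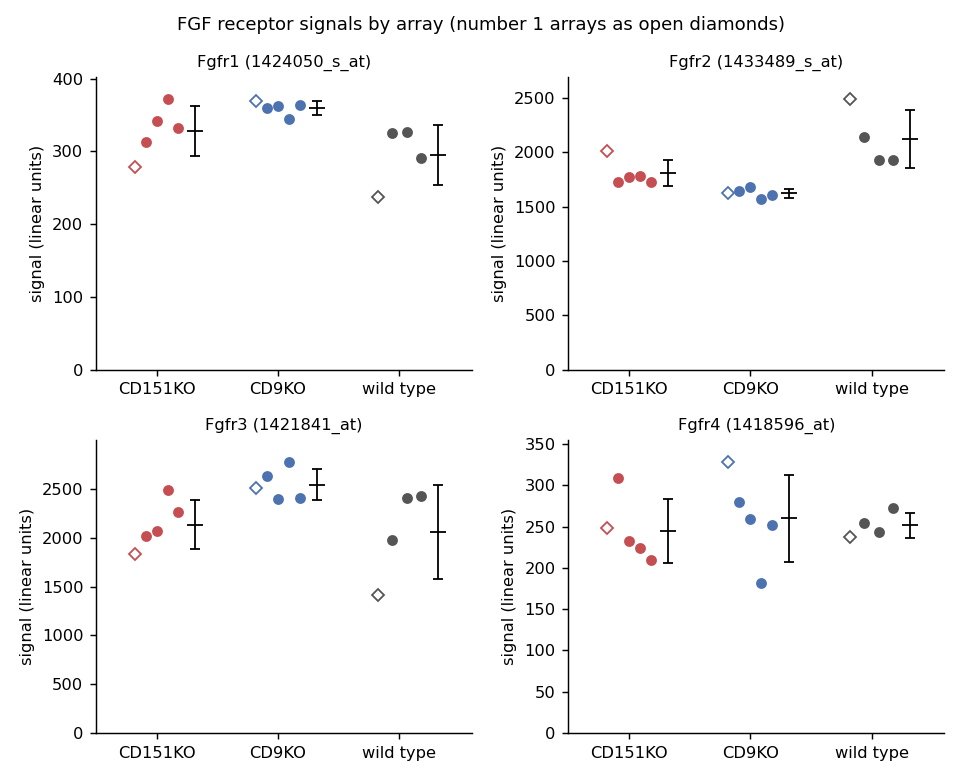
Signal of the brightest probe set of each FGF receptor gene on each array (vertical axes, linear units from 0) in CD151KO (n = 5), CD9KO (n = 5) and wild type (n = 4) lungs. Points are arrays, open diamonds the number 1 arrays, and bars the mean and SD. The Fgfr2 signals of all 5 CD9KO arrays (1572 to 1682) lie below those of all 4 wild type arrays (1927 to 2493).

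The other Fgfr2 probe sets pointed the same way. Probe set 1443211_at, much dimmer, averaged 59.3 ± 11.2 in CD9KO (SD, n = 5) and 92.1 ± 13.8 in wild type (n = 4), and was called when every probe set was tested (log2 -0.52, SE 0.11, limma adjusted p = 0.018), although 1 CD9KO array (74.0) lay just above the lowest wild type array (73.4). Probe set 1420847_a_at averaged 585 ± 8.91 in CD9KO (SD, n = 5) and 698 ± 92.7 in wild type (n = 4) and did not pass (log2 -0.24, limma adjusted p = 0.063). Without the number 1 arrays of CD151KO and wild type, 1443211_at had a log2 difference of -0.49 (limma adjusted p = 0.033). That of 1420847_a_at was then -0.17 (limma adjusted p = 0.117). Affymetrix gives the suffix _a_at to probe sets that match several transcripts of a gene, _s_at to those that match several transcripts that may belong to different genes, and _x_at to those with probes that may cross-hybridize. The sources used here do not give which splice forms of Fgfr2 each probe set reads.

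Fgfr1, the receptor of mesenchymal cells for many FGF ligands, was called higher in CD9KO than in wild type by 1 of its 3 probe sets. Its brightest probe set (1424050_s_at) measured 369, 359.6, 362, 344 and 364 in CD9KO, against 237, 326, 326 and 291 in wild type. All CD9KO arrays lay above all wild type arrays, with wild type number 1 the lowest, but the difference did not pass over all genes (log2 0.28, SE 0.09, limma adjusted p = 0.062). Probe set 1425911_a_at averaged 99.6 ± 7.76 in CD9KO (SD, n = 5) and 81.9 ± 5.09 in wild type (n = 4) and was called when every probe set was tested (log2 0.24, SE 0.05, limma adjusted p = 0.020), with the lowest CD9KO array (89.7) just above the highest wild type array (89.4). The dimmest, 1436551_at, had a log2 difference of 0.18 (limma adjusted p = 0.089), and its groups did not overlap either. Of 18 probe sets for these genes 3 were called in CD9KO against wild type, 1 higher and 2 lower, where 6.78% of all probe sets were called, and 5 had groups that did not overlap, beside 11.8% of all probe sets. The mean of all Fgfr1 probe sets passed (log2 0.23, limma adjusted p = 0.015), as did the brightest probe set without CD151KO number 1, which enters through the shared spread (adjusted p = 0.044). Without wild type number 1 the log2 difference of the brightest probe set was 0.19 (adjusted p = 0.163).

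Fgfr3, whose loss together with Fgfr4 blocks alveolar formation in mice, did not pass. It measured 2512, 2632, 2397, 2775 and 2412 in CD9KO, against 1414, 1981, 2412 and 2431 in wild type (probe set 1421841_at). The groups overlapped, and wild type numbers 1 and 3 were the low ones. The log2 difference was 0.33 (SE 0.13, 95% interval 0.06 to 0.61, limma adjusted p = 0.122). It was 0.17 without the number 1 arrays of CD151KO and wild type (adjusted p = 0.252) or without wild type number 1 alone (adjusted p = 0.331). With the replicate number as a block Fgfr3 passed, but the numbers were not taken as pairs. With the first component of the residuals in the model, a fit added after seeing the data, the difference of 0.33 had a limma adjusted p of 0.0013. That component comes from the residuals of the group model on these same arrays. It cannot move the difference and takes up residual spread by design, so nothing is concluded from this p. The second Fgfr3 probe set (1425796_a_at) averaged 234 ± 17.8 in CD9KO (SD, n = 5) and 193 ± 26.2 in wild type (n = 4), with groups that did not overlap (log2 0.27, limma adjusted p = 0.102). Its log2 difference was 0.18 without the number 1 arrays of CD151KO and wild type (limma adjusted p = 0.201). Fgfr4 averaged 260.0 ± 53.0 in CD9KO and 252 ± 15.2 in wild type (log2 0.02, 95% interval -0.25 to 0.30).

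**Figure D2:**
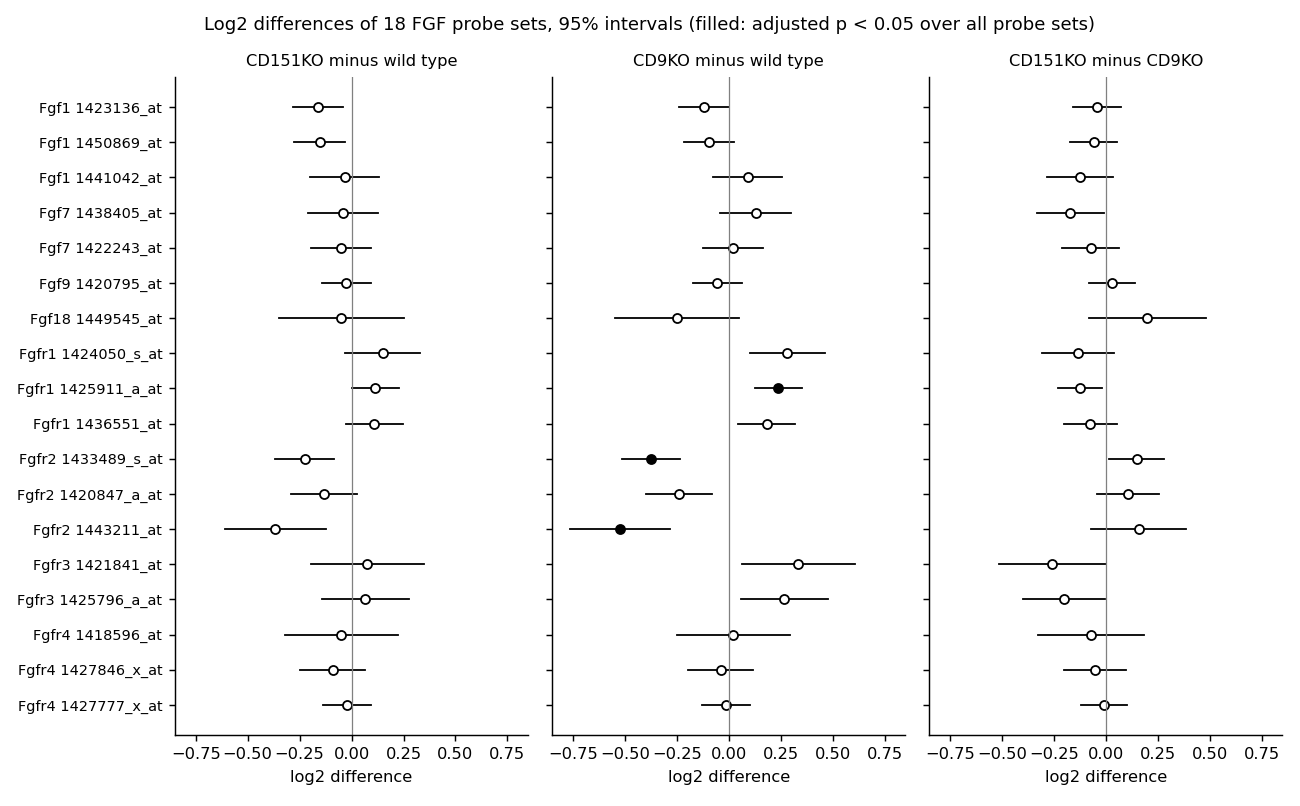
Log2 differences (horizontal axes) of the 18 FGF probe sets that passed the filter, with limma's 95% intervals, in CD151KO minus wild type, CD9KO minus wild type and CD151KO minus CD9KO. Filled points passed at an adjusted p under 0.05 over all probe sets. The 3 filled points are probe sets of Fgfr2 (-0.37 and -0.52) and Fgfr1 (0.24) in CD9KO minus wild type.

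Marker genes of lung cell types were also compared between CD9KO and wild type lungs. In this comparison 5.51% of all genes were called, and 25.4% had an unadjusted p under 0.05. In whole tissue, fewer cells of a type and less RNA per cell cannot be told apart. Of 6 smooth muscle markers limma called 4 higher in CD9KO (6 at an unadjusted p under 0.05), with differences above 0 in 6 of 6. The summed signal of the 6 was 8309 to 9813 in CD9KO and 6783 to 7596 in wild type. Of 6 cardiac muscle markers 1 was called higher (5 at an unadjusted p under 0.05), with differences above 0 in 6 of 6. Their median log2 difference was 0.51, with sums of 7769 to 10905 in CD9KO and 6004 to 7216 in wild type. Of 10 fibroblast markers 1 was called higher (3 at an unadjusted p under 0.05), with differences above 0 in 7 and below 0 in 3. Their sums were 33606 to 37596 in CD9KO and 33599.9 to 35297 in wild type. Alveolar type 2 cells are known to carry Fgfr2. Of their 7 markers measured, limma called 0 in CD9KO (unadjusted p under 0.05 for 1), and their sums were 85853 to 89641 in CD9KO and 86360 to 91041 in wild type. Sftpc, a large part of these sums, measured 28308 to 29212, near the array maxima of 28497 to 29667. A change may not show there, so nothing is concluded about the amount of these cells. For alveolar type 1 markers 0 of 6 passed (0 at an unadjusted p under 0.05), with sums of 59425 to 61918 in CD9KO and 59502 to 61887 in wild type. Of 5 neutrophil markers 0 passed (2 at an unadjusted p under 0.05), with differences below 0 in 5 of 5, a median log2 difference of -0.40, and sums of 1486 to 2085 in CD9KO and 2066 to 5368 in wild type. Of 4 adipose markers tested 0 passed (2 at an unadjusted p under 0.05), with differences above 0 in 4 of 4 and a median of 0.39. Among mesothelial, endothelial and B or plasma cell markers limma called 0 of 5, 0 of 6 and 0 of 5, with 0, 1 and 0 at an unadjusted p under 0.05. In these lists 0 markers were listed at 0 on any array. The part of these cells in the receptor differences was not tested.

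In lungs without CD151, limma called 0 of the 8 genes against wild type, where 0.778% of all genes were called. Fgf1 and Fgfr2 had an unadjusted p under 0.05, as did 11.1% of all genes, and 0 of the 8 had groups that did not overlap, beside 4.54% of all genes. Of the 18 probe sets 0 were called (5 at an unadjusted p under 0.05), beside 0.627% of all probe sets. Fgfr2 measured 2015, 1732, 1778, 1778 and 1727 in CD151KO, against 2493, 2138, 1927 and 1933 in wild type. Among the CD151KO arrays number 1 was high and lay within the wild type range, while the other 4 lay below every wild type array. The log2 difference was -0.23 (SE 0.07, 95% interval -0.37 to -0.08, limma adjusted p = 0.170), and was -0.19 without the number 1 arrays of CD151KO and wild type. In the fit with the first component of the residuals, added after seeing the data, the limma adjusted p was 0.0048. That fit takes up residual spread by design, so nothing is concluded from this p. CD151KO and CD9KO are compared with the same 4 wild type arrays, so their Fgfr2 values are not independent of each other. In CD151KO limma called 1 of 6 smooth muscle markers higher, with sums of 7685 to 8949 in CD151KO and 6783 to 7596 in wild type. Differences were above 0 in 6 of 6. Of the other cell markers limma called 0. Differences were above 0 in 5 of 5 neutrophil, 4 of 4 adipose, 5 of 5 mesothelial and 6 of 6 cardiac markers. Their medians were 0.39, 0.32, 0.28 and 0.16. Alveolar type 1 markers were below 0 in 6 of 6 (median -0.05). Alveolar type 2, fibroblast, endothelial and B or plasma cell markers went both ways. The part of these cells in the receptor values was not tested.

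The other receptors were closer to wild type in CD151KO. Fgfr1 measured 279, 314, 342, 372 and 333 in CD151KO, against 237, 326, 326 and 291 in wild type, and the groups overlapped (log2 0.15, 95% interval -0.03 to 0.33). The Fgfr1 difference was 0.05 without wild type number 1. Fgfr3 averaged 2135 ± 251 in CD151KO (SD, n = 5) and 2060 ± 478 in wild type (n = 4), with a log2 difference of 0.08 (95% interval -0.20 to 0.35) that changed sign, to -0.09, without wild type number 1. Fgfr4 averaged 245 ± 38.5 in CD151KO and 252 ± 15.2 in wild type (log2 -0.05, 95% interval -0.32 to 0.23).

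Between the knockouts limma called 0 of the 8 genes, where 10.1% of all genes were called. Fgfr2 and Fgf7 had an unadjusted p under 0.05, as did 27.6% of all genes. Of the 18 probe sets 0 were called (5 at an unadjusted p under 0.05), beside 7.70% of all probe sets. For Fgfr2 all CD151KO arrays (1727 to 2015) lay above all CD9KO arrays (1572 to 1682), as happened in 10.6% of all genes, with a log2 difference of 0.15 (SE 0.06, limma adjusted p = 0.138). For Fgfr3 the log2 difference was -0.26 (SE 0.12, limma adjusted p = 0.184). Both passed without wild type number 1, which enters through the shared spread (adjusted p = 0.038 for Fgfr2 and 0.041 for Fgfr3), and with only the groups compared in the fit (adjusted p = 0.045 and 0.042). The difference in Fgfr1 was -0.13 (95% interval -0.31 to 0.04). A p above the threshold does not show that the knockouts were alike in these receptors. Of 5 neutrophil markers 4 were called higher in CD151KO than in CD9KO, with differences above 0 in 5 of 5. Their sums were 3071 to 10626 in CD151KO and 1486 to 2085 in CD9KO. The alveolar type 2 marker Abca3 was higher in CD151KO (log2 0.36, limma adjusted p = 0.0041, 1 of 7 called). The cardiac marker Myh6 (-0.56, adjusted p = 0.039, 1 of 6) and the fibroblast marker Tcf21 (-0.36, adjusted p = 0.038, 1 of 10) were lower. Differences were above 0 in 4 of 7 alveolar type 2, 1 of 6 cardiac and 4 of 10 fibroblast markers. Of the other cell markers limma called 0. Differences were above 0 in 5 of 5 mesothelial and 5 of 5 B or plasma cell markers, and below 0 in 6 of 6 smooth muscle markers. Alveolar type 1, adipose and endothelial markers went both ways. The part of these cells in the receptor differences between the knockouts was not tested.

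Across the 14 arrays Fgfr1 and Fgfr3 ran in the same direction and Fgfr2 in the opposite one, while Fgfr4 had r of 0.04, -0.03 and -0.05 with Fgfr1, Fgfr2 and Fgfr3. The permutations below moved values across all 3 groups, so their p-values also take in differences between the groups. On the log2 scale Fgfr2 and Fgfr3 had Pearson's r = -0.84 (two-sided permutation p = 0.0013, adjusted p = 0.018 over 28 gene pairs) and Spearman's rho = -0.71 (permutation p = 0.0055, adjusted p = 0.059). Without wild type numbers 1 and 3, the arrays farthest from the Fgfr2 median, r was -0.59 (permutation p = 0.052). Fgfr1 and Fgfr2 had r = -0.85 (permutation p = 0.0013, adjusted p = 0.018) and rho = -0.72 (permutation p = 0.0043, adjusted p = 0.059), and r = -0.60 (permutation p = 0.051) without the number 1 arrays of CD151KO and wild type. For Fgfr1 and Fgfr3 r was 0.82 (permutation p = 0.0025, adjusted p = 0.018) and rho 0.70 (permutation p = 0.0064, adjusted p = 0.059), and r was 0.41 (permutation p = 0.191) without the same 2 arrays. None of these 3 relations had a permutation p under 0.05 without those arrays. Fgf18 and Fgfr3 had r = -0.72 (permutation p = 0.0025, adjusted p = 0.018) and rho = -0.60 (permutation p = 0.028, adjusted p = 0.111). Without wild type number 1 and CD151KO number 5, the arrays farthest from the Fgf18 median, r was -0.80 (permutation p = 0.0019). Without the number 1 arrays of CD151KO and wild type it was weaker, at -0.53, and was not tested. After each group's mean was subtracted, r over the 14 arrays was -0.89 for Fgfr2 and Fgfr3, -0.71 for Fgfr1 and Fgfr2, and 0.75 for Fgfr1 and Fgfr3. Within the 5 CD9KO arrays alone, too few for a test, the sign was the opposite for Fgfr1 and Fgfr2 (r = 0.56) and for Fgfr1 and Fgfr3 (r = -0.79). Each receptor of this trio also followed the first principal component of all genes, with r of -0.82 for Fgfr2, 0.81 for Fgfr1 and 0.91 for Fgfr3, and -0.10 for Fgfr4. The part of the difference between arrays in these relations was not tested.

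**Figure D3:**
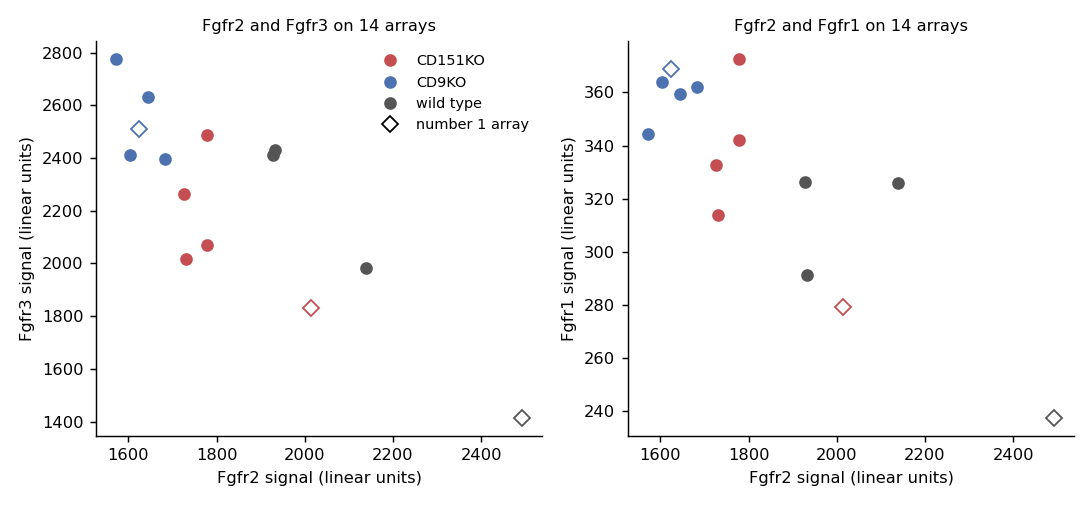
Signals of Fgfr3 (left) and Fgfr1 (right) against the signal of Fgfr2 on the 14 arrays (linear units, axes not from 0), with CD151KO in red, CD9KO in blue and wild type in grey. Open diamonds are the number 1 arrays. Wild type number 1 has the highest Fgfr2 signal (2493) and the lowest Fgfr3 (1414) and Fgfr1 (237) signals.

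Among the ligands, limma called 0 of the 4 tested in each comparison, where 0.778%, 5.51% and 10.1% of all genes were called in CD151KO and CD9KO against wild type and between the knockouts. At an unadjusted p under 0.05 there was 1 in CD151KO (Fgf1) and 0 in CD9KO against wild type, and 1 between the knockouts (Fgf7), beside 11.1%, 25.4% and 27.6% of all genes. Fgf1, which binds all FGF receptors, measured 2617, 2731, 2384, 2532 and 2448 in CD151KO and 2869, 2572, 2676, 2474 and 2517 in CD9KO, against 3179, 2659.6, 2719 and 2841 in wild type. Both knockouts overlapped wild type, and wild type number 1 was the highest array. The log2 difference was -0.16 in CD151KO (SE 0.06, 95% interval -0.28 to -0.04, limma adjusted p = 0.272) and -0.12 in CD9KO (95% interval -0.24 to 0.00, limma adjusted p = 0.208), and was -0.11 and -0.06 without wild type number 1. A second Fgf1 probe set (1450869_at) had log2 differences of -0.15 and -0.10, and another, dim one (1441042_at), of -0.03 and 0.09.

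Fgf7, the keratinocyte growth factor, which makes alveolar type 2 cells divide, measured 499.8, 516, 425, 450.3 and 488 in CD151KO and 527, 442, 555, 547 and 626 in CD9KO, against 517, 466, 502 and 471 in wild type (probe set 1438405_at). CD9KO held both a value below and 4 values above all wild type arrays. The log2 difference between CD151KO and CD9KO was -0.17 (SE 0.08, limma adjusted p = 0.156). It was -0.24 and passed without CD9KO number 2 (adjusted p = 0.031), the lowest array of its group. The other Fgf7 probe set (1422243_at) had a log2 difference of -0.07 (limma adjusted p = 0.518).

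Fgf18, which acts in the growth of the lung mesenchyme, measured 188, 191, 149.9, 142 and 104 in CD151KO and 157, 114, 139, 125 and 120.1 in CD9KO, against 193, 155, 139.6 and 147 in wild type. The groups overlapped throughout, with log2 differences from wild type of -0.05 in CD151KO (95% interval -0.35 to 0.25) and -0.25 in CD9KO (95% interval -0.55 to 0.05). The sign in CD151KO turned without wild type number 1 (0.04) or CD151KO number 5 (0.07). The difference in CD9KO was -0.16 without the number 1 arrays of CD151KO and wild type. Fgf9 lay between 57.2 and 69.8 on all 14 arrays, with log2 differences within -0.05 and 0.03 in the 3 comparisons and 95% intervals within -0.17 and 0.14.

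Fgf10, the branching factor of the embryonic lung, measured 39.5 to 50.7 in CD151KO and 41.0 to 44.6 in CD9KO, against 40.7 to 45.4 in wild type. Fgf2, a mitogen of fibroblasts and endothelium, measured 11.1 to 12.6 in CD151KO and 11.8 to 14.3 in CD9KO, against 11.7 to 12.7 in wild type. Both lay under the filter on every array, where signals depend on how the background was treated, and no statement about their transcripts is drawn from them.

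**Figure D4:**
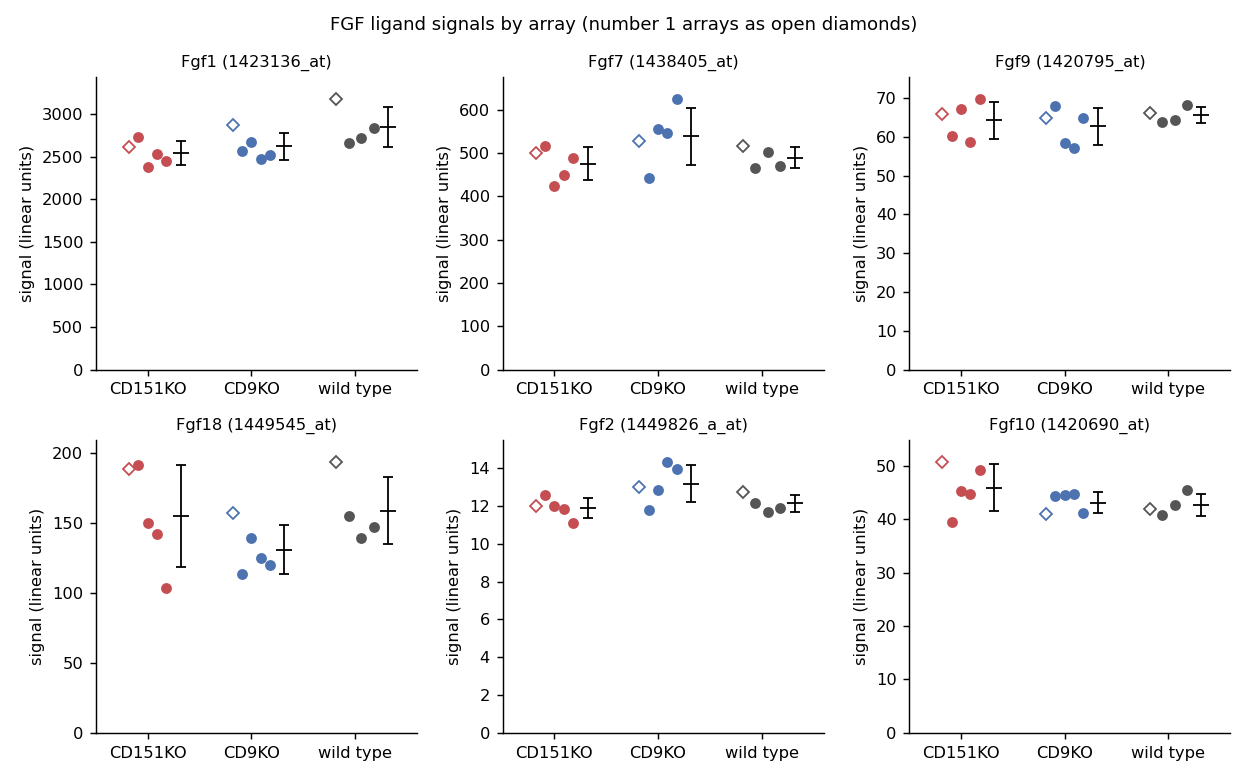
Signal of the brightest probe set of each FGF ligand gene on each array (vertical axes, linear units from 0) in CD151KO (n = 5), CD9KO (n = 5) and wild type (n = 4) lungs. Points are arrays, open diamonds the number 1 arrays, and bars the mean and SD. Fgf2 (11.1 to 14.3) and Fgf10 (39.5 to 50.7) lie below the filter of 53.4, and the groups of each tested ligand overlap.

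The 3 genes whose signals followed each member most closely over the 14 arrays are given as a description, since they are the highest of all other tested genes. For Fgfr2 they were 4933434E20Rik, Pcyt1a and Apold1 (r = 0.94, 0.94 and 0.92), for Fgfr3 Gpsm1, Smad4 and Brd1 (r = 0.96, 0.95 and 0.95), for Fgfr1 Fastkd1, Sorbs3 and St3gal2 (r = 0.95, 0.92 and 0.92), and for Fgfr4 Ppp2r5a, Map7d1 and Nxph4 (r = 0.88, 0.87 and 0.86). For Fgf1 they were Plekha1, Emp2 and Dhps (r = 0.91, 0.90 and 0.89), for Fgf7 Bmt2, Ubqln2 and Pdcd7 (r = 0.94, 0.90 and 0.87), for Fgf18 Golm2, Gamt and Ube2e3 (r = 0.91, 0.91 and 0.90), and for Fgf9 Cpsf7, Clec4f and A630001G21Rik (r = 0.81, 0.80 and 0.80). After group means were subtracted, Usp5 (r = 0.96) came first for Fgfr2, Oxsr1 (r = 0.97) for Fgfr3 and Plekha8 (r = 0.93) for Fgfr1.

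Other genes of the pathway were read from lists of known parts. Against wild type, 0 genes of these lists were called in CD151KO by limma, with 1 of 4 other FGF genes, 2 of 13 co-receptors and binding proteins, 1 of 11 heparan sulfate enzymes, 4 of 15 signal transducers, 0 of 10 targets and feedback inhibitors and 2 of 9 lung partners of Fgf10 at an unadjusted p under 0.05, beside 11.1% of all genes. In CD9KO against wild type 6 of the 62 genes tested in these lists were called (9.68%), beside 5.51% of all genes. Of the 4 other FGF genes tested 1 is among these 6, Fgf13, an FGF homologue that stays inside the cell, with 66.1 ± 8.64 in CD9KO (SD, n = 5) and 45.2 ± 5.07 in wild type (n = 4) (log2 0.42, SE 0.08, limma adjusted p = 0.017). The wild type mean lies under the filter, so Fgf13 was tested only because of the groups in which it is high, and its call is given as a description. The share of 9.68% counts Fgf13, and the 1 of 4 other FGF genes in CD151KO is Fgf13 too. Both are therefore also given only as a description.

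Heparan sulfate enzymes shape the sugar chains to which FGF ligands bind. Hs2st1, which adds sulfate to the uronic acid of heparan sulfate, averaged 2395 ± 200.4 in CD9KO (SD, n = 5), 2986 ± 389 in CD151KO (n = 5) and 3392 ± 399.5 in wild type (n = 4). It was the 1 of 11 called in CD9KO against wild type, and was lower (1.41-fold, log2 -0.50, SE 0.09, limma adjusted p = 0.015). Every CD9KO array lay below every wild type array. Of the 11 enzymes, 4 had differences below 0 and 7 above 0. The median of the list was 0.03, beside 0.00 for all genes. With the mean of its probe sets the Hs2st1 difference was -0.25 and still passed (adjusted p = 0.028).

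Of 13 co-receptors and binding proteins, 1 was called in CD9KO against wild type. Fgfbp1, a secreted carrier that frees FGF ligands from matrix, was higher in CD9KO, with 529 ± 54.1 against 411 ± 41.8 in wild type (log2 0.35, limma adjusted p = 0.042). The Fgfbp1 call was lost when wild type 3, 4 or 5, CD151KO 3, or CD9KO 2, 3, 4 or 5 was left out, at adjusted p of 0.092, 0.076, 0.075, 0.051, 0.056, 0.059, 0.090 and 0.087. Flrt3, a membrane protein that binds FGF receptors, measured 514 in CD9KO and 679 in wild type on average (log2 -0.38, limma adjusted p = 0.141). The list's median was -0.02 in CD9KO, beside 0.00 for all genes.

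Of 15 signal transducers, limma called 1 higher and 1 lower in CD9KO, with differences above 0 in 8 and below 0 in 7. Shc1, an adaptor of many receptor tyrosine kinases, averaged 362 ± 11.2 in CD9KO (SD, n = 5) and 308 ± 17.4 in wild type (n = 4), with no overlap (log2 0.22, SE 0.04, limma adjusted p = 0.017). It did not pass as the mean of its probe sets (adjusted p = 0.053). Gab1, a docking protein downstream of the FGF receptors, averaged 919 ± 48.5 in CD9KO and 1090.4 ± 133 in wild type (log2 -0.24, limma adjusted p = 0.0499). The Gab1 call ended in 19 of 29 alternative fits, among them those without wild type number 1, 4 or 5 (adjusted p = 0.116, 0.061 and 0.068), without CD151KO number 2, 3, 4 or 5 (0.058, 0.060, 0.063 and 0.057) and without CD9KO number 2, 3, 4 or 5 (0.061, 0.082, 0.094 and 0.111). Without wild type number 1 the log2 difference was -0.16.

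Targets and feedback inhibitors of FGF signalling did not pass: limma called 0 of 10 in each of the 3 comparisons. At an unadjusted p under 0.05 there were 0 in CD151KO and 2 in CD9KO against wild type, and 2 between the knockouts, beside 25.4% of all genes in CD9KO against wild type and 27.6% between the knockouts. Etv5, an ETS factor switched on by FGF receptors, averaged 1738 in CD9KO and 2085 in wild type (log2 -0.25, SE 0.10, limma adjusted p = 0.141). Its log2 difference was -0.31 to -0.14 without single arrays and -0.25 to -0.13 in the other alternative fits. Spry2, an inhibitor of receptor tyrosine kinase signalling, averaged 373 in CD9KO and 411 in wild type (log2 -0.13, limma adjusted p = 0.171). The medians of the list were -0.02 in CD151KO and -0.04 in CD9KO against wild type, beside 0.01 and 0.00 for all genes.

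Of 9 partners of Fgf10 in lung development, 1 was called higher in CD9KO against wild type, with differences above 0 in 7 and below 0 in 2. Nkx2-1, the transcription factor that marks lung epithelium, averaged 123 ± 12.1 in CD9KO (SD, n = 5) and 97.2 ± 3.70 in wild type (n = 4), with no overlap (log2 0.29, limma adjusted p = 0.027). The Nkx2-1 call was lost when wild type 3 or 4 or CD9KO 4 or 5 was left out (adjusted p = 0.064, 0.051, 0.055 and 0.066). Wnt2, a ligand of the lung mesenchyme, averaged 186 in CD9KO and 246 in wild type (log2 -0.38, limma adjusted p = 0.102), and passed without CD9KO number 1 (log2 -0.47, adjusted p = 0.046). It passed in 3 of 29 alternative fits, and its limma adjusted p rose as high as 0.274. The log2 difference was -0.47 to -0.30 without single arrays and -0.41 to -0.27 in the other fits.

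**Figure D5:**
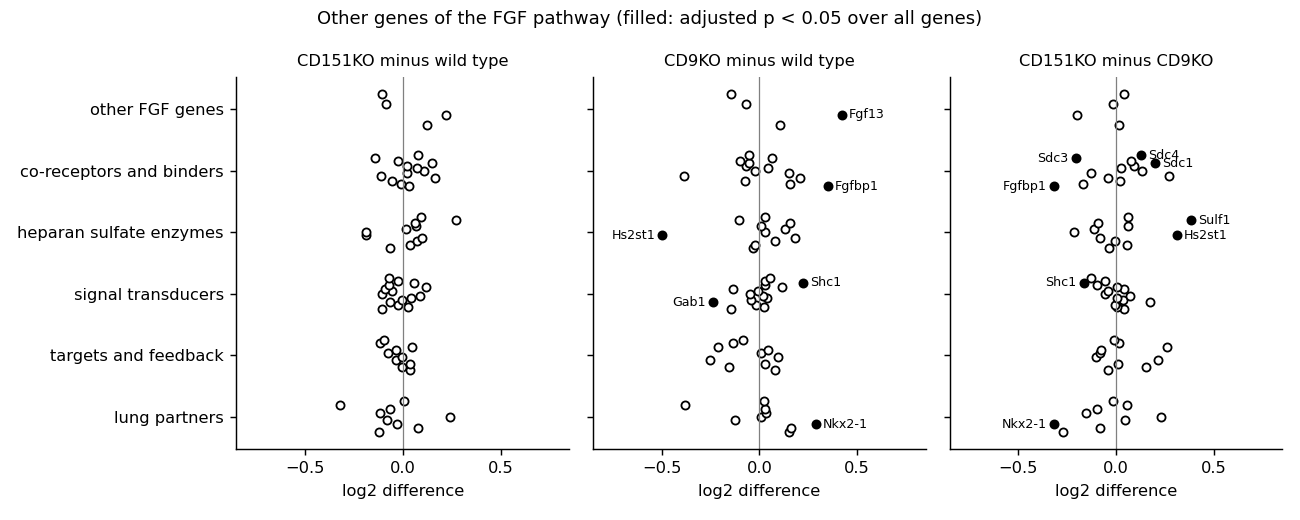
Log2 differences (horizontal axes) of the tested genes of 6 pathway lists in CD151KO minus wild type, CD9KO minus wild type and CD151KO minus CD9KO; the vertical position within a list only separates the points. Filled points passed at an adjusted p under 0.05 over all genes and are named. None is filled in CD151KO minus wild type, and Hs2st1 (-0.50) and Fgf13 (0.42) are the farthest filled points in CD9KO minus wild type, where Fgf13 passed the filter only through the groups in which it is high.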

How the data were processed

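RNA of 14 whole lung samples was biotin-labelled for 1-colour Affymetrix arrays, per the labels. The deposited values are normalized intensities, 1 for each probe set on each array, in linear units. The submitters' processing notes name Affymetrix Expression Console and MAS5 without role or version, and how the arrays were normalized could not be settled from the labels. Gene symbols come from the platform annotation (34945 probe sets have exactly 1). For 34741 of these the RefSeq symbol of the same gene identifier was used in its place. Each gene took its probe set with the highest mean, and genes under the 40th percentile of mean log2(signal + 16) were left out, which kept 12985 of 18193. The groups were compared in 1 model over the 14 arrays (limma 3.58.1, R 4.3.3, eBayes with trend, 11 residual degrees of freedom). Tests were two-sided, with Benjamini-Hochberg adjustment over all genes, or over 22951 probe sets where every probe set was tested. Correlations were tested with 100000 permutations (scipy 1.17.1). The model was tested on simulated data with independent noise for each probe set. That test leaves out variation that the probe sets of an array share, so it says nothing about such variation here. Plots were made in matplotlib 3.10.9 (Python 3.11.15). The small number of arrays limits the precision.

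The members and gene lists were chosen with earlier results of these data known. The genes named are from the 10 members, the genes called in each pathway list, up to 3 others per list and comparison with the smallest unadjusted p, and the 3 genes most correlated with each member. Alternatives changed the pseudocount, centring, filter, probe set rule, model and arrays used.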

Additional observations from a re-analysis of the deposited data

Results flagged for a closer look

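Among 54 groups of arrays (18 probe sets in 3 groups), 2 held an array far from the rest of its group by Dixon's test, where chance flags about 1 in 20 groups. Fgfr2 (1433489_s_at) was high on CD151KO number 1, at 2015 against 1727 to 1778 on the other CD151KO arrays. Fgfr3 (1425796_a_at) was high on CD9KO number 1, at 265 against 219 to 231 on the other CD9KO arrays.

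The effects of the knockouts against wild type differed for 8 of 62 pathway genes (12.9%) by the test of CD151KO against CD9KO (limma, adjusted p over all genes), a share near the 10.1% of all genes called in that comparison. The heparan sulfate enzymes Sulf1 (log2 0.38, adjusted p = 0.023) and Hs2st1 (0.31, adjusted p = 0.040), and the syndecans Sdc1 (0.20, adjusted p = 0.0093) and Sdc4 (0.13, adjusted p = 0.048), which carry heparan sulfate chains, were higher in CD151KO. The syndecan Sdc3 (-0.21, adjusted p = 0.035), Fgfbp1 (-0.32, adjusted p = 0.033), Shc1 (-0.17, adjusted p = 0.023) and Nkx2-1 (-0.32, adjusted p = 0.0074) were lower in CD151KO. Sdc1 averaged 2425 ± 84.8 in CD151KO and 2109 ± 66.8 in CD9KO (SD, n = 5 each), and Sdc1 and Nkx2-1 passed in every alternative fit that tested them. The calls ended in 5 fits for Sulf1, 11 for Hs2st1, 18 for Sdc4, 10 for Sdc3, 6 for Fgfbp1 and 5 for Shc1, of 29 each.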

How the results depend on the processing

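Fgfr2 in CD9KO against wild type kept its direction and its call in all 29 alternatives. Against the 1 member called there, 2 were called with the mean of all probe sets or with every probe set, 3 with the residual component (chosen after seeing the data), and 1 to 2 when single arrays were left out. The fit with the residual component takes up residual spread by design, so its counts here and below are given only as a description. Against 0 in CD151KO, 1 was called with the residual component and 0 without any single array. Against 0 between the knockouts, 2 were called with only the groups compared or the residual component, and 0 to 2 without single arrays. Of all genes, the 101 called in CD151KO against wild type became 39 with only the groups compared, 335 with array weights, 57 without moderation, 45 without the number 1 arrays of CD151KO and wild type, 302 with the residual component and 24 to 98 without single arrays. The 715 called in CD9KO against wild type became 1318 genes with at least 1 called probe set when every probe set was tested. The count was 1090 with array weights, 313 without moderation, 405 without those number 1 arrays, 2450 with the residual component and 158 to 866 without single arrays. The 1313 between the knockouts became 2615 with the residual component and 682 to 1939 without single arrays. Uncalled log2 differences near 0 changed sign. For CD151KO against wild type, Fgfr3 was -0.010 with array weights, -0.040 without the number 1 arrays and -0.093 to 0.166 without single arrays. There Fgf18 ranged from -0.125 to 0.073, Fgf9 from -0.050 to 0.00046, Fgfr4 from -0.13 to 0.00098 and Spry4 from -0.14 to 0.0051, with Spry4 at 0.0031 without the number 1 arrays. For CD9KO against wild type Fgfr4 was -0.0043 without the number 1 arrays and -0.063 to 0.137 without single arrays. Between the knockouts Fgfr4 ranged from -0.186 to 0.014 and Fgf22 from -0.038 to 0.018, with Fgf22 at 0.0077 with array weights. The causes were not tested. Some samples with the same number deviated together and others did not (correlations of -0.13 to 0.59 in CD151KO and 0.0043 to 0.18 in CD9KO against wild type, and -0.10 to 0.21 between the knockouts), so the numbers were not taken as pairs. With the replicate number as a block, 3 members (Fgfr1, Fgfr2 and Fgfr3) and 1591 genes were called in CD9KO against wild type, and Fgfr4 there was -0.034. The 4 or 5 arrays per group limit what could be detected, and signals near the filter lie close to background.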
